A study of Mus musculus with 3 samples.

Results

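The genes described here are the antioxidant, glutathione and detoxification genes of mouse mesenchymal progenitors, a list of 40 genes chosen by function. A probe set of the platform annotation named 37 of them alone, out of 17097 genes so represented in the whole table. The other 3, Prdx5, Prdx6 and Mt2, had no probe set listed for them alone and were not analysed here. Where a gene had several probe sets, the one with the highest mean over the 3 arrays stood for it. A gene was called measured where that probe set reached an intensity of 64 on at least 1 array, which 32 of the 37 did, among 2738 measured genes in all.

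The cells, named PaS+ in the labels, were sorted progenitors from bone marrow of C56Bl/6 mice aged 8 weeks, the strain spelled as in the labels. They were kept in 1% oxygen for 7 days in MesenCult medium, received lentiviral shRNA overnight and were harvested 4 days after transduction. There were 3 groups, control shRNA (shCTR), shRNA against HIF-1α (shHIF-1a) and shRNA against HIF-2α (shHIF-2a), with 1 array in each. Both targets are alpha subunits of hypoxia-inducible transcription factors, which oxygen destabilises. All 3 groups had the low oxygen and the lentivirus, so no array held untransduced cells or cells at a higher oxygen concentration. The labels do not give the number of animals, the hairpin sequences or the number of hairpins per target. With 1 array per group there was no replicate check, no test was made, and each difference below describes a pair of arrays.

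Cells remove hydrogen peroxide and lipid peroxides with glutathione peroxidases, peroxiredoxins and catalase, after superoxide dismutases have made peroxide from superoxide. Glutathione and thioredoxin supply the electrons for the glutathione peroxidases and peroxiredoxins, and are themselves recharged by reductases that draw on NADPH. Glutathione transferases, quinone reductase, carbonyl reductases and aldehyde dehydrogenases convert reactive or foreign compounds, and metallothioneins bind zinc and copper. Many of these genes carry an antioxidant response element, the DNA sequence bound by the transcription factor NRF2.

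The RefSeq promoter table (GRCm38.p6) held 40 start sites of 33 member genes. Antioxidant response elements were sought as TGACNNNGC on both strands in the 250 bases before each start site, and 7 of the 40 promoters (17.5%) held a match, against 10.2% of 32851 promoters of the same length. The matching windows are shown for the 6 genes that also have array values, since several of them are textbook NRF2 targets. Capitals mark the match, which reads on the other strand in all but Gstm5. Each window is 60 bases long, on the plus strand and 5′ to 3′.
Prdx1: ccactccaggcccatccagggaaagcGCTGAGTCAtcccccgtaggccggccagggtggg
Gclm: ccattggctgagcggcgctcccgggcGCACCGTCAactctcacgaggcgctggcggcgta
Txnrd1: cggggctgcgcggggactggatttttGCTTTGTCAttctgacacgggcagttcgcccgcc
Sod1: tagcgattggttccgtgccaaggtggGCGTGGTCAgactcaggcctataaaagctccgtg
Mgst1: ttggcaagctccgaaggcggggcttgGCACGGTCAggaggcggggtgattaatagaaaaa
Gstm5: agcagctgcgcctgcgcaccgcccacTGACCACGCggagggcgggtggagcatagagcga

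The first base of the match lay 133 bases before the start site in Prdx1, 134 in Gclm, 92 in the matching promoter of Txnrd1, 56 in Sod1, 56 in the matching promoter of Mgst1 and 42 in Gstm5. The windows lie at chr4:116685440-116685499 for Prdx1, chr3:122245397-122245456 for Gclm, chr10:82859088-82859147 for Txnrd1, chr16:90220680-90220739 for Sod1, chr6:138140445-138140504 for Mgst1 and chr3:107895786-107895845 for Gstm5.

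Gpx3 and Cbr2 are shown because they were the 2 members at least 2-fold apart between the shRNA arrays. Their promoters are printed as the 250 bases before the start site, on the plus strand for Gpx3 (chr11:54902604-54902853) and on the minus strand for Cbr2 (chr11:120732022-120732271). Neither holds capitals, since TGACNNNGC has no match in either window.
Gpx3: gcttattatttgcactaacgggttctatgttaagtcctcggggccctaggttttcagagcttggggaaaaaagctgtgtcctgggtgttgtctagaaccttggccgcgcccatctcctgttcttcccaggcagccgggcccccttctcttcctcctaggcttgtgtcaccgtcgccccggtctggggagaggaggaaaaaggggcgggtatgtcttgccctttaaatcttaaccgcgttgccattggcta
Cbr2: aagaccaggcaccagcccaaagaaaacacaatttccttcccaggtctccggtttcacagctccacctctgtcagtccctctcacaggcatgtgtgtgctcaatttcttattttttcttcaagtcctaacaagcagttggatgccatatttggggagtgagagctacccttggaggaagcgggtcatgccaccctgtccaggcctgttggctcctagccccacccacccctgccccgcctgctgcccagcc

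Other motifs were counted in the same windows, on both strands and with overlapping matches counted separately. The core of the hypoxia response element, ACGTG or GCGTG, was in 27 of the 40 member promoters (67.5%) and in 38.6% of all promoters. Base composition differed between these sets, with a median GC content of 58.8% in the member promoters and 52.4% in all, and its part in the motif counts was not tested. Gpx3 and Cbr2 had no match to this core in the window. A metal response element core, TGCACNC or TGCGCNC, was in 10 member promoters (25%) against 21.4% of all.

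The arrays were checked on a few facts that bear on every value. By the brighter of its 2 probe sets, Hif1a read 352 with the control hairpin and 332 with either of the others. That reading of the first target did not separate the hairpins. Epas1, which encodes HIF-2α and also has 2 probe sets, read 5.09, 9.44 and 3.21 on the control, shHIF-1a and shHIF-2a arrays by the brighter. The last of these lies under 3.47, the highest of 23 nonspecific control probe sets. Every direction below therefore rests on the labels, and the arrays are called by them. Hybridisation controls were dimmer on the shHIF-2a array, at a median log2 difference of −1.02 from control over 12 probe sets, and near control on the shHIF-1a array, at 0.08. Between 4143 and 4421 of the 45141 probe sets reached 64 on an array. All 11 mesenchymal markers on the table exceeded the nonspecific level on every array, Pdgfra among them at 38.2, 51.6 and 47.9. By the minimum of 64 only 5 of the 11 were measured, and Pdgfra was not. The mesenchymal marker Ly6a had no probe set listed for it alone. Ptprc, which marks blood cells, read 1.05 on every array, and the sum over 15 blood and macrophage markers was 113, 106 and 116, most of it from Cd14.

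Most members differed little between arrays. Against control, 2 of the 32 measured members were at least 2-fold apart on the shHIF-1a array, where 1.06% of all measured genes were, and both were higher. They were Aldh3a1 and Cbr2, which lay under 64 on the control array and reached it only on shRNA arrays. The minimum itself thus favoured higher calls for them. On the shHIF-2a array 3 of 32 were at least 2-fold apart, against a background of 2.52%, with 1 higher (background 1.68%) and 2 lower (background 0.84%). Between the shRNA arrays 2 of 32 were that far apart, both lower on the shHIF-2a array, against 1.68% in either direction and 1.17% lower among all measured genes. Cbr2, 1 of these 2, reached 64 on the shHIF-1a array alone, so the minimum favoured its lower call as well. The 5 calls against control and 2 between the shRNA arrays fell on only 3 genes, the aldehyde dehydrogenase gene Aldh3a1, the carbonyl reductase gene Cbr2 and the plasma glutathione peroxidase gene Gpx3.

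Members lay on both sides of 0 in each comparison. Between the shRNA arrays 16 of 32 (50.0%) were lower on the shHIF-2a array, 9 were higher and 7 were equal, where 32.4% of all measured genes were lower. These counts take differences of any size. Among the lower are Cat, at −0.0016, and Txn1, at −0.03, both of which changed sign after quantile scaling. The median log2 difference of the 32 members was 0.00 on each shRNA array against control and −0.00080 between the shRNA arrays, where all measured genes had medians of 0.01, 0.02 and 0.00. Exactly equal values were common, at 9 of 32 members (28.1%) for the shHIF-1a array and control and 6 of 32 (18.8%) for the shHIF-2a array and control. Among all measured genes these shares were 22.6% and 16.6%. The way RMA summarises few arrays can give equal values, so a small difference may go unrecorded in such genes. Larger differences were also counted, and 6 of 32 members (18.8%) differed by at least 0.5 on the log2 scale between the shRNA arrays, where 8.07% of all measured genes did. The corresponding shares against control were 6.25% of members and 2.85% of all genes for the shHIF-1a array, and 12.5% and 10.04% for the shHIF-2a array.

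**Figure D1:**
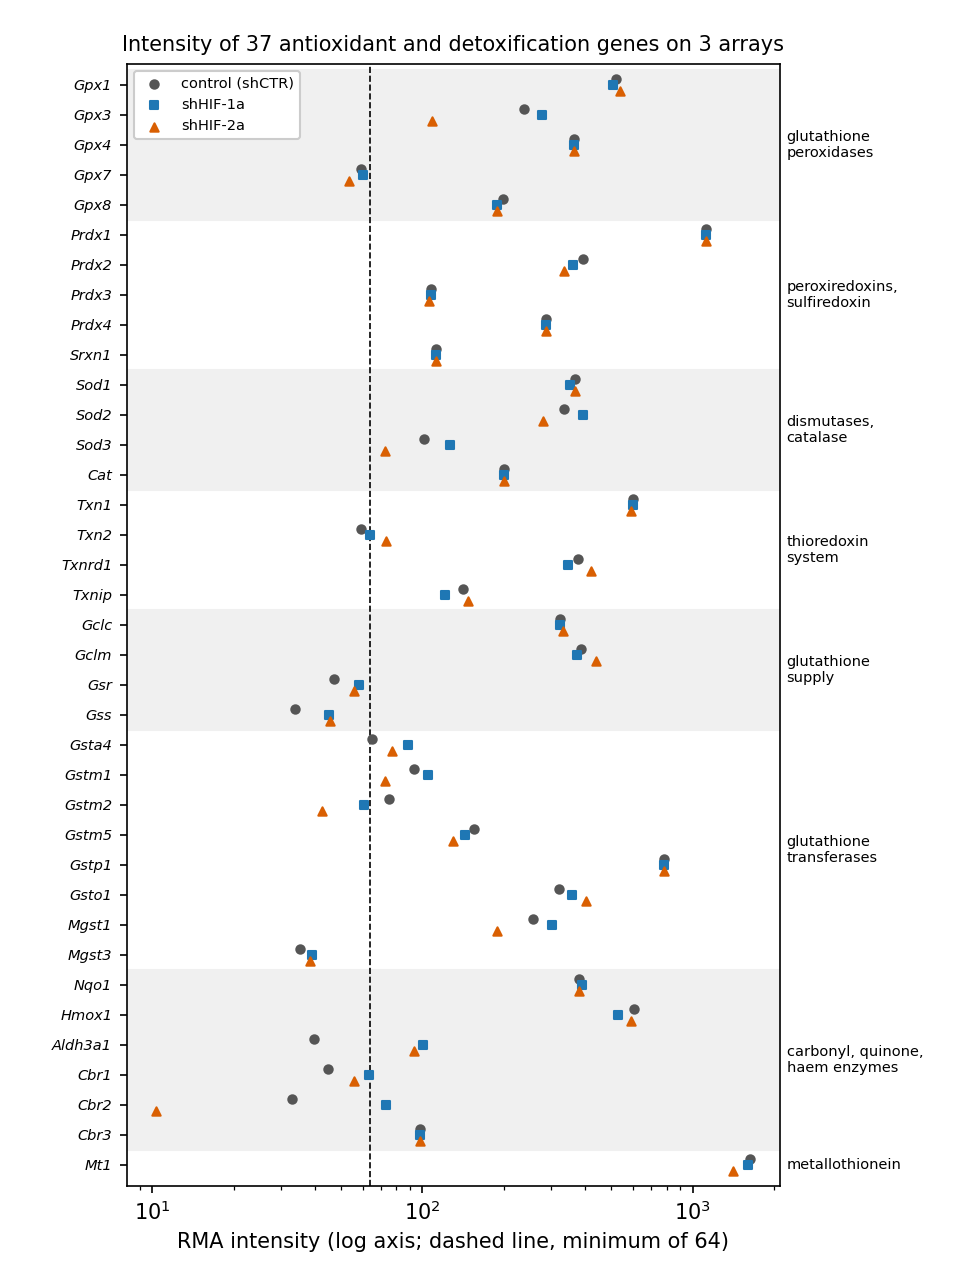
RMA intensity (log axis) of the 37 member genes on the control, shHIF-1a and shHIF-2a arrays, 1 point per array, with members grouped by role and a dashed line at the minimum of 64. The symbols of most genes overlap, and those of Cbr2, Gpx3 and Aldh3a1 lie furthest apart, with Cbr2 at 10.4 on the shHIF-2a array. Brightness depends on the probe set, so positions compare arrays within a gene and not genes with each other.

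Among the glutathione peroxidases, which reduce peroxides with glutathione, Gpx3 alone was at least 2-fold apart between arrays. Gpx3, the form secreted into plasma and extracellular fluid, read 238 on the control array, 277 on the shHIF-1a array and 108 on the shHIF-2a array. It was thus lowest on the shHIF-2a array, 2.19-fold under control and 2.55-fold under the shHIF-1a array, and 1.16-fold above control on the latter. With 32 added to each value before log2, its difference from control on the shHIF-2a array was −0.94, short of 2-fold, and that between the shRNA arrays −1.14. The cytosolic enzyme gene Gpx1 read 522, 506 and 537, which places the 3 arrays within 0.09 of each other on the log2 scale. Gpx4, whose product reduces lipid peroxides in membranes, read 364 on all 3 arrays. Both peroxidases of the endoplasmic reticulum also stayed near control: Gpx8 read 198, 189 and 189, and Gpx7 read 59.3, 60.5 and 53.4, under the minimum on every array.

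Peroxiredoxins, thiol peroxidases recharged by thioredoxin, differed little, with −0.24 for Prdx2 as the largest log2 difference from control among the 4 on the table (Prdx1 to Prdx4), by the probe sets used. Prdx1, a cytosolic member, read 1118 on every array, although its second probe set read 309, 270.3 and 263. The mitochondrial Prdx3 read 108, 108 and 106, and Prdx4, of the endoplasmic reticulum, read 286, 288 and 288. Prdx2, another cytosolic member, read 394, 359.5 and 334, lower on both shRNA arrays by 0.13 and 0.24 on the log2 scale. Its second probe set gave log2 differences of −0.10 and −0.26. Srxn1, the sulfiredoxin that repairs overoxidised peroxiredoxins, read 112 on all arrays, while a dimmer probe set for it read 46.9, 50.8 and 56.4.

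Among superoxide dismutases, Sod2 and Sod3 differed more than Sod1. Sod1, the cytosolic copper-zinc enzyme, read 366, 352 and 368 and so stayed within 0.06 on the log2 scale. Sod2, the mitochondrial manganese enzyme, read 333 on the control, 394 on the shHIF-1a and 279 on the shHIF-2a array. Sod3, the extracellular enzyme, read 101, 126 and 72.6 in the same order. Both genes were thus highest on the shHIF-1a array and lowest on the shHIF-2a array. Between the shRNA arrays the log2 difference was −0.50 for Sod2 and −0.80 for Sod3, which is 1.41-fold and 1.74-fold. Other probe sets gave −0.57 and −0.56 for Sod2 and −0.87 for Sod3. A further Sod2 probe set read 2.14 on all arrays, under the nonspecific level. The peroxide-splitting catalase gene Cat read 199.8, 199.8 and 199.6, with log2 differences of at most 0.01 in size.

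The thioredoxin system returns peroxiredoxins to their reduced form. By the probe sets used, its log2 differences from control on the shHIF-2a array ranged from −0.03 to 0.31. Txnrd1, the cytosolic thioredoxin reductase, read 376, 344 and 419.9. The thioredoxin inhibitor gene Txnip read 141, 121 and 148. Txnrd1 and Txnip were thus both lowest on the shHIF-1a array, each with a log2 difference of 0.29 between the shRNA arrays. A second Txnip probe set read 20.3 on all 3 arrays and did not show this difference. The mitochondrial thioredoxin gene Txn2 read 59.3, 63.8 and 73.3 and passed the minimum only on the shHIF-2a array. Other Txn2 probe sets read 59.3, 61.7 and 61.7, and 51.1, 53.1 and 56.2, under the minimum on every array. They differed from control by 0.06 and 0.14 on the shHIF-2a array. The cytosolic Txn1 read 603, 603 and 590.0.

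Glutathione synthesis and recycling showed small differences. Gclc, the catalytic subunit of the rate-limiting ligase, read 322, 322 and 332. Its modifier subunit Gclm read 387, 373 and 438, a log2 difference of 0.18 from control on the shHIF-2a array. Gss, which completes glutathione, read 33.7 on the control array against 44.9 and 45.3 on the shRNA arrays. Gsr, the glutathione reductase gene, read 46.9 against 58.4 and 55.8. Gss and Gsr were thus higher than control on both shRNA arrays, with log2 differences from 0.25 to 0.43, but neither reached the minimum of 64 on any array.

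**Figure D2:**
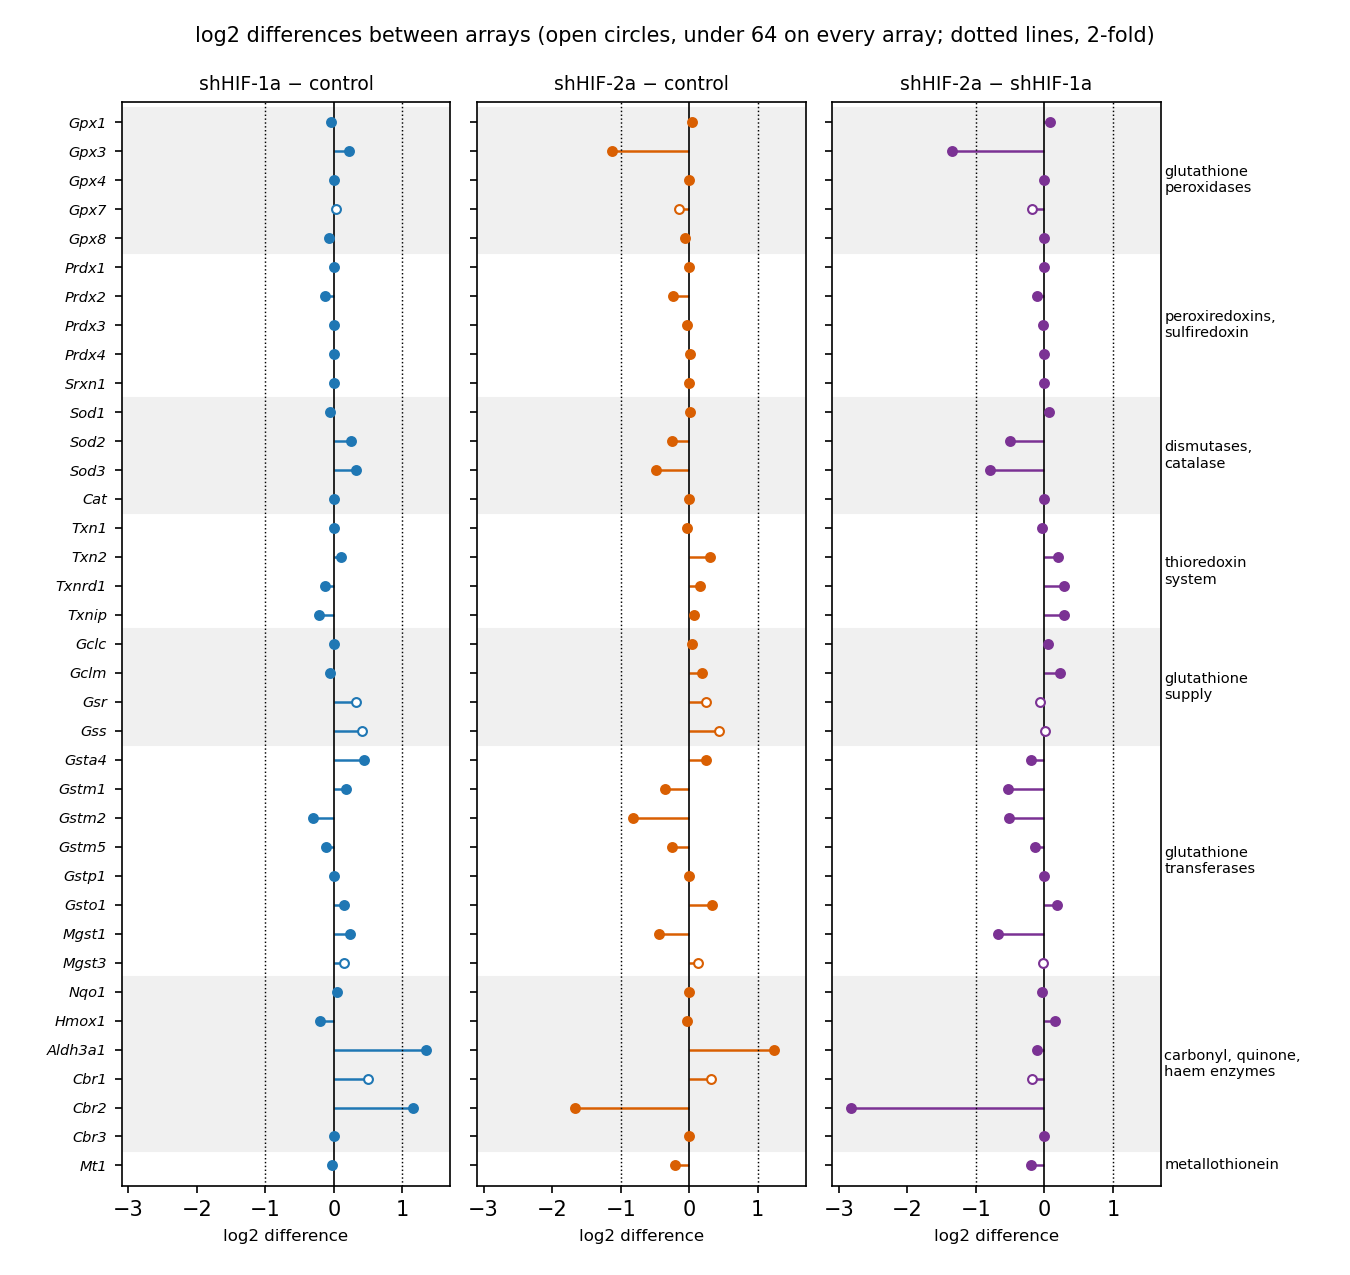
log2 difference of each member between pairs of arrays, in 3 panels for the shHIF-1a array minus control, the shHIF-2a array minus control and the shHIF-2a minus the shHIF-1a array. Filled circles are measured members, open circles lie under 64 on every array, and dotted lines mark 2-fold; Cbr2 extends to −2.82 in the last panel, and Gpx3 to −1.35.

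Glutathione transferases, which join glutathione to reactive compounds, included genes on both sides of control. All 3 mu-class members were below control on the shHIF-2a array. Gstm2 read 75.2, 60.7 and 42.6, the largest difference in the group at −0.82 on the log2 scale, and reached the minimum on the control array only. Gstm1 read 92.8, 105 and 72.6, and Gstm5 read 155, 143 and 130.2. Gstm1 thus lay above control on the shHIF-1a array by 0.17 and under it on the shHIF-2a array by 0.35, while Gstm2 and Gstm5 were lower than control on both. Probe sets of closely related mu-class genes can bind each other's transcripts, and the extent of this was not tested. On the shHIF-2a array against control, the other bright Gstm1 probe set gave −0.55 and a dim one, at 9.55, 10.02 and 8.60, gave −0.15.

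The microsomal transferase gene Mgst1, whose product protects membranes, read 257 on the control, 301 on the shHIF-1a and 189 on the shHIF-2a array. It was 1.60-fold lower on the shHIF-2a than on the shHIF-1a array. The only other Mgst1 probe set lay under the nonspecific level. Gsto1, the omega-class enzyme, went the other way, at 321, 356 and 403, with a log2 difference of 0.33 from control on the shHIF-2a array and 0.20 by its second probe set. Gsta4, which handles the lipid aldehyde hydroxynonenal, read 65.3, 88.7 and 77.2, above control on both shRNA arrays by 0.44 and 0.24. The pi-class gene Gstp1 read 785 on all arrays, and Mgst3 read 35.1, 38.9 and 38.5, under the minimum.

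Carbonyl and aldehyde enzymes included Cbr2 and Aldh3a1, which with Gpx3 were the members past 2-fold. Cbr2, a carbonyl reductase known from mouse lung, read 32.8 on the control array, 73.1 on the shHIF-1a array and 10.4 on the shHIF-2a array. It was 2.23-fold above control on the first shRNA array, 3.16-fold under control on the second, and 7.05-fold apart between them. Cbr2 reached 64 on the shHIF-1a array alone, so the minimum itself favoured a difference for this gene. All 3 readings exceeded the nonspecific level. With 32 added to each value before log2, its differences were 0.70, −0.61 and −1.31, so only the last was past 2-fold.

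Aldh3a1, an aldehyde dehydrogenase best known from cornea, read 39.6 on the control array, 100.2 on the shHIF-1a and 93.3 on the shHIF-2a array. It was higher than control on both, by 2.53-fold and 2.35-fold, and the shRNA arrays differed from each other by 1.07-fold. Its control value lay under the minimum, which only the shRNA arrays reached, so the minimum itself favoured a higher reading on them. With 32 added before log2 the differences from control were 0.88 and 0.81, short of 2-fold. Both differences against control rest on the same control array. Cbr2, Aldh3a1 and Gpx3 were each read by a single probe set, so none of them had a second reading.

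The 6 genes whose antioxidant response elements are printed above did not move as 1 group. By the probe sets used, Prdx1 was equal on all arrays and Sod1 nearly so, but the second Prdx1 probe set gave −0.19 and −0.23 against control. Gclm and Txnrd1 were higher than control on the shHIF-2a array, by 0.18 and 0.16 on the log2 scale, while Mgst1 and Gstm5 were lower, by differences of −0.44 and −0.25. The differences of Gclm and Txnrd1 were smaller than the SD of 0.21 between probe sets in this comparison, described below. Gpx3 and Cbr2, whose printed promoters lack the motif, were lower than control on the shHIF-2a array too, at −1.13 and −1.66. Both were chosen for printing by their array values. The searched windows of Nqo1 and Srxn1 also held no match, and sequence beyond the windows was not searched. Control of any of these genes by NRF2 was not tested.

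The remaining carbonyl, quinone and haem genes stayed closer to control. Cbr1, the main cytosolic carbonyl reductase gene, read 44.8, 63.3 and 55.6, just under the minimum on the shHIF-1a array, with log2 differences of 0.50 and 0.31. Its neighbour on chromosome 16, Cbr3, read 97.7 on every array. Nqo1, a quinone reductase widely used as an indicator of NRF2 activity, read 378, 389 and 378. The haem oxygenase gene Hmox1 read 605, 528 and 589, lowest on the shHIF-1a array by a log2 difference of −0.20. The metal-binding Mt1 read 1633, 1607 and 1409, and on the shHIF-2a array it was lower by 0.21, or by 0.47 on a second, dimmer probe set.

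**Figure D3:**
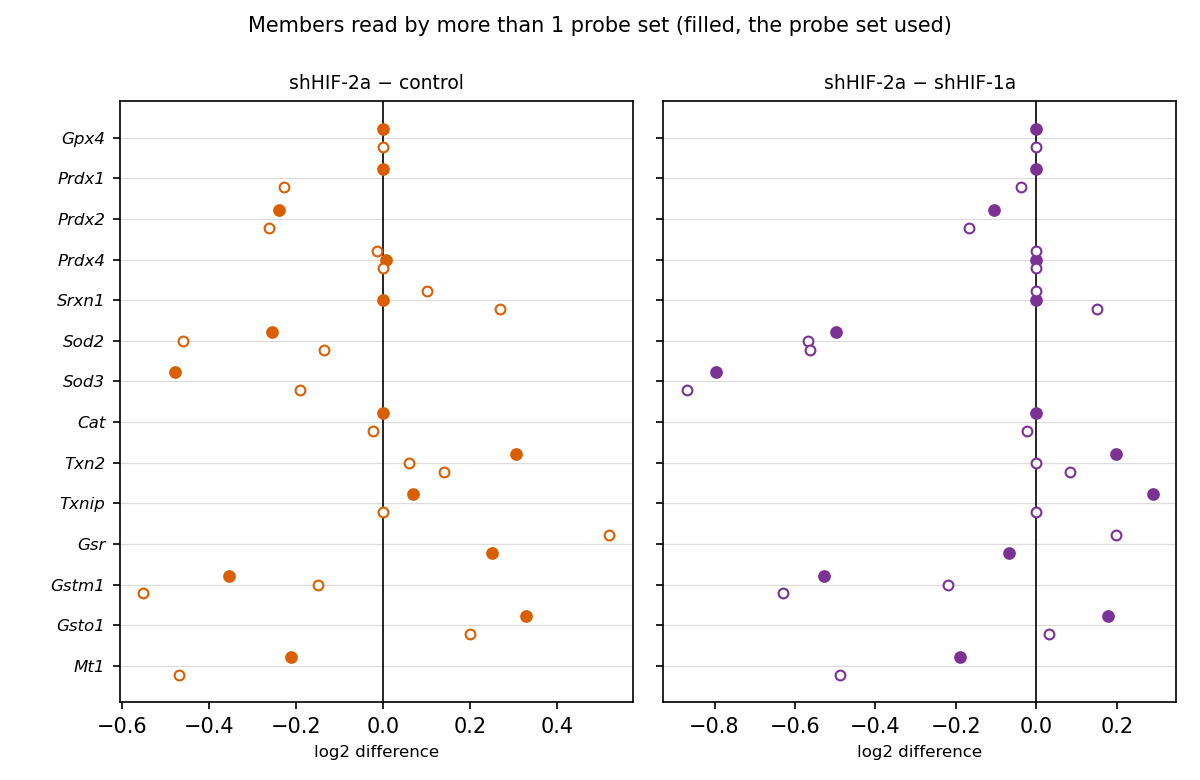
log2 difference of every probe set above the nonspecific level (at least 1 array over 3.47) for members read by more than 1 such probe set, for the shHIF-2a array minus control (left) and minus the shHIF-1a array (right); filled circles are the probe sets used. Readings of Sod2 lay between −0.57 and −0.50 in the right panel and those of Sod3 between −0.87 and −0.80, while those of Gstm1 ran from −0.63 to −0.22 and those of Txnip, Srxn1 and Mt1 also spread more widely.

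The spread between probe sets gives a scale for these differences. Pooled over 649 genes that several measured probe sets read, this SD of the log2 difference was 0.12 for the shHIF-1a array against control, 0.21 for the shHIF-2a array against control and 0.14 between the shRNA arrays. It covers probe sets within a pair of arrays and not cultures. Gpx3 (−1.35), Sod3 (−0.80), Mgst1 (−0.68), Gstm1 (−0.53), Gstm2 (−0.51), Sod2 (−0.50) and Cbr2 (−2.82) differed between the shRNA arrays by more than 3 times that spread. That is 7 of 32 measured members, where 10.5% of all measured genes were that far apart. Against control the same measure was passed by 3 members on the shHIF-1a array (Gsta4, Aldh3a1 and Cbr2; 5.81% of all genes) and by 4 on the shHIF-2a array (Gpx3, Gstm2, Aldh3a1 and Cbr2; 7.16%). In each of the 7 genes apart between the shRNA arrays, the shHIF-2a array was the lower, as it was in 58.0% of the 288 measured genes past the same measure. Hybridisation controls were also lower there, by a median of 1.09 on the log2 scale relative to the shHIF-1a array, and their part in these differences was not tested. In whole cultures, fewer cells of a type and less RNA per cell cannot be told apart.

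Interferon-response genes were brighter on the shRNA arrays than on the control array. Over 15 of them on the table, the summed intensity was 51.3 on the control, 619 on the shHIF-1a and 1154 on the shHIF-2a array. Their part in the differences of the antioxidant genes was not tested. Smooth muscle markers summed to 696, 730.3 and 520.1 over 6 genes, of which only 2 exceeded the nonspecific level. These were Acta2, at 374, 429 and 233, and Tpm2, at 316, 293 and 280.

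Other genes of redox metabolism, a list of 109 with 95 on the table and 49 measured, gave the surroundings of these enzymes. On the shHIF-1a array 0 of 49 were at least 2-fold from control, where 1.06% of all measured genes were. On the shHIF-2a array 1 of 49 was (background 2.52%), and between the shRNA arrays again 1 of 49 (background 1.68%), in both cases Selenop. The median log2 differences were 0.00 in all 3 comparisons. Selenop encodes the secreted protein that carries selenium, the element that Gpx1, Gpx3 and Gpx4 need in their active site. It read 122 on the control, 152 on the shHIF-1a and 60.8 on the shHIF-2a array, lowest on the last by 2.01-fold against control and 2.51-fold against the shHIF-1a array. With 32 added before log2 both differences, at −0.73 and −0.99, were short of 2-fold.

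Regulators and electron suppliers of the system were near control by the probe sets used. Nfe2l2, which encodes NRF2, read 298, 298 and 294. Its small MAF partner Mafg differed from control by 0.11 and 0.18, and Maff by −0.11 and −0.02. All 6 measured genes of NADPH supply, the pentose phosphate enzymes Pgd, Pgls, Tkt and Taldo1 with Me1 and Idh1, lay within 0.1 of control on the shHIF-1a array. On the shHIF-2a array the lowest of them was Idh1, at −0.27, and the highest Taldo1, at 0.20. The Me1 probe set used read 151.0 on every array. A second Me1 probe set of like brightness read 157.7, 141.0 and 127.6, with log2 differences from control of −0.16 and −0.31.

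Among the 49 measured genes of this wider list, the highest differences from control on the shHIF-2a array were those of Nqo2, Chac1, Slc3a2 and Glrx5. Nqo2, a quinone reductase related to Nqo1, read 49.3, 65.9 and 92.4, under the minimum on the control array only. Its log2 differences were 0.42 and 0.91. Dimmer Nqo2 probe sets gave 0.23 and 0.23, and 1.00 and 1.11. Chac1, an enzyme that degrades glutathione and is induced by amino-acid stress, differed by 0.20 and 0.73. Slc3a2, the partner chain of the cystine importer, differed by 0.23 and 0.51, and the mitochondrial glutaredoxin gene Glrx5 by 0.10 and 0.30. The lowest measured genes in that comparison were Selenop, the sestrin gene Sesn3 (−0.47), the xenobiotic oxidase gene Cyp1b1 (−0.35) and the retinal dehydrogenase gene Aldh1a1 (−0.32). A second Cyp1b1 probe set read 95.1 on all arrays, and a dimmer Sesn3 probe set gave 0.41.

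On the shHIF-1a array the highest measured genes of the wider list were Nqo2, the paraoxonase gene Pon3 (0.34), Aldh1a1 (0.32) and Selenop (0.32). The lowest measured were Cyp1b1 (−0.20), the mitochondrial aldehyde dehydrogenase gene Aldh2 (−0.12), Maff (−0.11) and the enone reductase gene Ptgr1 (−0.11). Between the shRNA arrays Chac1 (0.54), Nqo2 (0.49), Ptgr1 (0.40) and the glyoxalase gene Glo1 (0.34) had the highest differences among measured genes. Selenop (−1.33), Aldh1a1 (−0.65), Sesn3 (−0.62) and Idh1 (−0.36) had the lowest. Aldh1a1 and Sesn3 reached 64 on the shHIF-1a array alone, and Chac1 on the shHIF-2a array alone. Nqo2 and Pon3 reached it on both shRNA arrays but not on the control array. The minimum itself thus favoured a difference for these genes. Between the shRNA arrays, dimmer Nqo2 probe sets gave 0.00 and 0.11, the other Glo1 probe sets 0.00, and a dimmer Sesn3 probe set 0.00.

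Several genes of the wider list that stayed under 64 differed more, and they are named here after their values were seen. Slc7a11, the transporter chain of the cystine importer, read 7.23 on the control, 30.5 on the shHIF-1a and 55.7 on the shHIF-2a array. It was thus higher than control by 4.22-fold and 7.70-fold, above the nonspecific level throughout. A second Slc7a11 probe set read 24.2, 28.3 and 37.3 and gave log2 differences from control of 0.22 and 0.62, so the size of the difference hung on the probe set. Gstt1, a theta-class glutathione transferase gene, read 14.2, 21.0 and 6.38, 2.22-fold lower than control on the shHIF-2a array and 3.29-fold lower than on the shHIF-1a array. Gsta2, of the alpha class and on a shared probe set, read 9.80, 14.7 and 22.8, 2.33-fold higher than control on the shHIF-2a array. Cyp1a1 lay under the nonspecific level except on the shHIF-2a array, at 6.49, so there it was at least 1.87-fold higher than on either other array. Over all 95 genes on the table, with no minimum, 1 was past 2-fold on the shHIF-1a array, 5 on the shHIF-2a array and 3 between the shRNA arrays, with the measured Selenop in the last pair of counts and Cyp1a1 counted by its log2 difference. Among all 17097 genes, most of them dim, these shares were 3.59%, 6.07% and 1.28%.

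**Figure D4:**
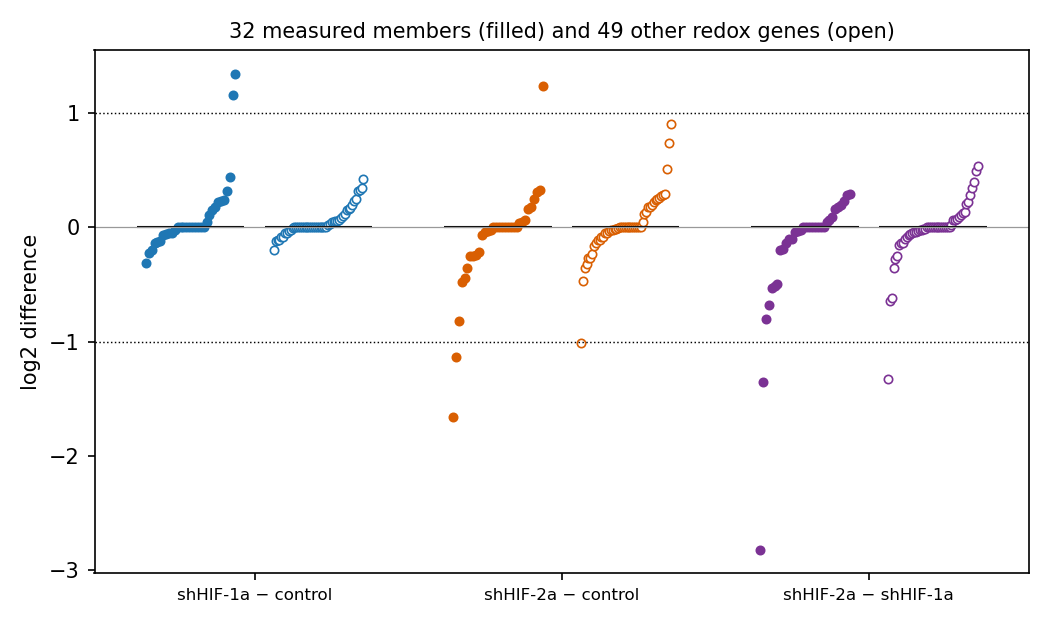
log2 differences of the 32 measured members (filled) and of 49 other measured redox genes (open) in each comparison, each set sorted from low to high, with black bars at the medians and dotted lines at 2-fold. Both sets have medians near 0. Between the shRNA arrays the lowest members are Cbr2, at −2.82, and Gpx3, at −1.35. The lowest measured gene of the wider list is Selenop, at −1.33.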

How the data were processed

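The authors deposited 1 table of RMA values. RMA stands in the submitters' processing notes, with version and settings not given in the sources used here. The deposited values are linear intensities, from 0.63 to 1747, and log2 was taken with nothing added and no further scaling. Probe sets were named from the platform annotation (28898 with 1 gene, 551 with several), with symbols updated by Entrez identifier through RefSeq GRCm38.p6 for 28689. RefSeq promoters come from the same build. Samples were grouped by title, 1 array each, and compared in 3 pairs by a rule of size, at least 2-fold, with no test. The number of arrays limits the precision. Members and gene lists were chosen with earlier results of these data known. Named were all members, Hif1a, Epas1, the 4 highest and 4 lowest measured genes of the wider redox list in each comparison, and markers. Nfe2l2, Mafg and the measured genes of NADPH supply were named outside this rule. Slc7a11, Gstt1, Gsta2 and Cyp1a1 were named after their values were seen. Python 3.11.15, R 4.3.3 and limma 3.58.1 (cyclic loess and quantile scaling, as alternatives) were used. The counting step was tested on simulated data.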

Additional observations from a re-analysis of the deposited data

How the results depend on the processing

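No paired analysis was possible because each group had 1 array. Each comparison was repeated with 32 added before log2, a minimum of 16, no minimum, the mean over a gene's probe sets, cyclic loess scaling and quantile scaling. With 32 added, 0 members were at least 2-fold from control on the shHIF-1a array and 0 on the shHIF-2a array, and 2 (Gpx3 and Cbr2) were between the shRNA arrays. The other alternatives gave the same genes at 2-fold in every comparison, and the median of the members stayed between −0.02 and 0.02. No member past 2-fold changed sign. After loess or quantile scaling a few small differences, of at most 0.04 in size, changed sign. Differences of dim genes are limited by signal over background.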
